A study of Mus musculus with 28 samples.

Results

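The comparison described here is that of a cystine diet with a control diet in Lgr5-high cells of the mouse small intestine, over all genes with enough counts to test. Its members were chosen by label alone and are 14 of the 28 RNA sequencing libraries of the series, 7 on each diet. All animals carried Lgr5-GFP, an allele whose green fluorescence reports transcription of Lgr5, and the sort on that signal gave the Lgr5-high population and an Lgr5-low population, which supplied the other 14 libraries. Both groups share the genotype and the tissue and differ by diet, control or cystine. Amounts of cystine, days on diet, age, strain and sex are not given in the labels. One label names organoids as the source of the RNA, while the design text names small intestine, and the sources do not settle which is meant. Whether the 7 libraries of a diet came from 7 separate animals is not stated either, so a p-value here weighs a difference against the spread of these libraries only, which may be partly technical.

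Lgr5 encodes a receptor that amplifies Wnt signals in the columnar stem cells at the base of intestinal crypts, which renew the epithelium. Cystine is the oxidised pair of 2 cysteine molecules; cells import it or cysteine itself, and use cysteine for protein, glutathione, coenzyme A and taurine. The title of the study links dietary cysteine to stemness through interleukin 22, a cytokine of lymphocytes that acts on epithelial cells and switches on antimicrobial genes, and through CD8 T cells. The comparison therefore asks what the sorted stem cell population transcribed on each diet, and bears on genes of stem cells, of the interleukin 22 response and of cysteine use.

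The sort was visible in the counts. Lgr5 itself stood at 16.2 to 45.1 CPM (counts per 1000000 counts of a library, scaled between libraries, the unit of all levels here) in the 14 Lgr5-high libraries, and at 0.214 to 10.9 CPM in the 14 Lgr5-low libraries. Olfm4, another gene of crypt base stem cells, spanned 2885 to 6824 CPM against 566 to 2290 CPM. The epithelial genes Epcam and Cdh1 averaged 407 ± 26.3 and 155 ± 20.2 CPM (SD, n = 7) on control diet, and 403 ± 97.9 and 148 ± 27.98 CPM on cystine. Markers of Paneth cells, the defensin-secreting neighbours of the stem cells, were also abundant and uneven, with a summed level from 19570.1 to 156734 CPM on control diet and from 46284 to 153418 CPM on cystine. Cystine libraries held fewer counts, 2.75 to 14.9 M (M for 1000000) against 4.05 to 21.4 M (log2 difference -1.21, two-sided exact permutation test, p = 0.0227). Judged by Xist, 3 control and 2 cystine libraries fell in a male class, and 4 and 5 in a female class. The male class held control replicates 1 to 3 and cystine replicates 1 and 2, so class went with replicate number. One library stood apart: cystine replicate 1, the deepest cystine library and one of the male class, lay within or under the control range at many genes where the other 6 cystine libraries did not, and its values are given with the called genes.

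Of 12495 genes tested with edgeR's quasi-likelihood test, 21 passed an adjusted p of 0.05, which is 0.168% of those tested. All 21 were higher on cystine (0.168%) and none was lower (0%). At an unadjusted p under 0.05 there were 269 higher (2.15%) and 266 lower (2.13%). The median log2 fold change over all genes was -0.02, and the median gene's 95% interval reached 0.895 to either side, close to a 2-fold change. Of the 21 genes, 18 are known from macrophages and other leukocytes, and the other 3 (Dynlt1b, Gm15500 and Gm9493) have near-identical copies elsewhere in the genome.

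Macrophages are phagocytes found in every tissue; Kupffer cells are those of the liver sinusoids and carry some surface proteins that few other macrophages have. Cd68 (chr11:69664213-69666153, mm10), a glycoprotein of the phagocyte lysosome, spanned 3.38 to 10.4 CPM (median 7.45) on control diet and 5.24 to 97.3 CPM (median 68.7) on cystine. On cystine, 6 libraries lay at 31.4 to 97.3 CPM, all above every control library, and replicate 1 lay at 5.24 CPM, within the control range. Its log2 fold change was 3.02 ± 0.45 (SE), with an adjusted p of 0.000596 by edgeR. Clec4f (chr6:83644542-83656187), a lectin by which Kupffer cells are recognised, spanned 4.74 to 12.5 CPM (median 8.61) and 1.33 to 126 CPM (median 75.5). Here replicate 1, at 1.33 CPM, was below all 7 control libraries, and the fold change was 2.98 ± 0.55 on the log2 scale (edgeR, adjusted p = 0.0135).

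Fcer1g and Tyrobp encode adaptors that pass signals from activating receptors of myeloid cells. Fcer1g, the shared chain of Fc receptors, spanned 1.88 to 9.01 CPM (median 5.42) on control diet and 9.70 to 74.0 CPM (median 39.8) on cystine. All 7 cystine libraries exceeded all 7 control libraries, replicate 1 by the narrowest margin at 9.70 CPM. The log2 fold change was 2.97 ± 0.43, with the lowest adjusted p of the comparison (0.000402, edgeR). Tyrobp, which serves several lectin-like and Trem receptors, rose by 3.08 ± 0.53 and Fcgr3, a receptor for immunoglobulin G, by 3.03 ± 0.68. Pilra, Cd300c2 and Clec1b, further paired or lectin-like receptors, rose by 2.99, 3.37 and 2.86. Other receptors did not pass, among them Fcgr4 (3.15, adjusted p = 0.0584, edgeR) and Fcgr2b (3.10, 0.146). Cystine replicate 1 was at 3.05 CPM for Tyrobp, 0.548 for Fcgr3, 0.548 for Pilra, 0.391 for Cd300c2 and 0.391 for Clec1b, below all control libraries for Pilra and Clec1b and within their range for the others.

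Other called genes encode proteins of uptake, clearance and secretion. C1qb, a chain of the complement starter C1q, spanned 1.81 to 5.56 CPM (median 3.01) against 0.939 to 48.4 CPM (median 25.5), a log2 fold change of 2.79 ± 0.59. Its partner C1qc averaged 2.77 ± 0.777 and 16.6 ± 10.97 CPM and did not pass the test (log2 2.57, adjusted p = 0.06 by edgeR). Vsig4, a complement receptor of resident macrophages, rose by 3.20 ± 0.60, Cd5l, a secreted scavenger protein, by 2.89 ± 0.62, and Folr2, a folate receptor, by 3.04 ± 0.53. Cystine replicate 1 was below all control libraries for these and the C1q genes, at 0.939 CPM for C1qb, 0.626 for C1qc, 0.548 for Vsig4, 1.25 for Cd5l and 1.33 for Folr2. Lyz2, the lysozyme of myeloid cells, spanned 10.98 to 33.1 CPM (median 19.7) on control diet and 6.81 to 280.2 CPM (median 161) on cystine, a change of 2.94 ± 0.61. Wfdc17, a small secreted protein of activated macrophages, spanned 3.97 to 25.3 CPM (median 20.3) and 6.73 to 311 CPM (median 177), a change of 3.38 ± 0.65. In both, cystine replicate 1 lay at 6.81 and 6.73 CPM, the lowest cystine value. Pla2g7, the secreted phospholipase that breaks down platelet-activating factor, had the largest fold change of the 18 genes (3.54 ± 0.73) and the other complete separation: its highest control library was at 1.01 CPM and its lowest cystine library at 1.87 CPM. The remaining 3 were Aif1, an actin-binding protein of macrophages (3.02), Cd52, a short surface glycoprotein of leukocytes (2.96), and Fabp7, a fatty acid binding protein listed here with Kupffer cells (3.280). Cystine replicate 1 was at 0.548, 2.19 and 0.391 CPM, below all control libraries for Aif1 and within their range for Cd52 and Fabp7.

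Across the 18 leukocyte genes the log2 fold changes ran from 2.79 to 3.54, with a median of 3.02. In 2 of them all 7 cystine libraries were above all control libraries, and in the other 16 exactly 6 were. Non-overlap in that direction was found at 19 of all genes tested (0.152%), and in the other direction at 8 (0.064%). Cystine replicate 1 was the lowest cystine library in 17 of the 18 genes, was below the control median in 16 and below every control library in 9. The highest library was cystine replicate 3 in 12 genes and replicate 6 in the other 6. Without replicate 1, the count of calls rose from 21 to 41 (36 higher, 5 lower). Without the 4 libraries of fewer than 5 M counts, cystine replicates 2, 3 and 6 and control replicate 1, no gene passed (0 called, with 671 genes at an unadjusted p under 0.05, edgeR), while the median over the 18 genes was 2.27.

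**Figure D1:**
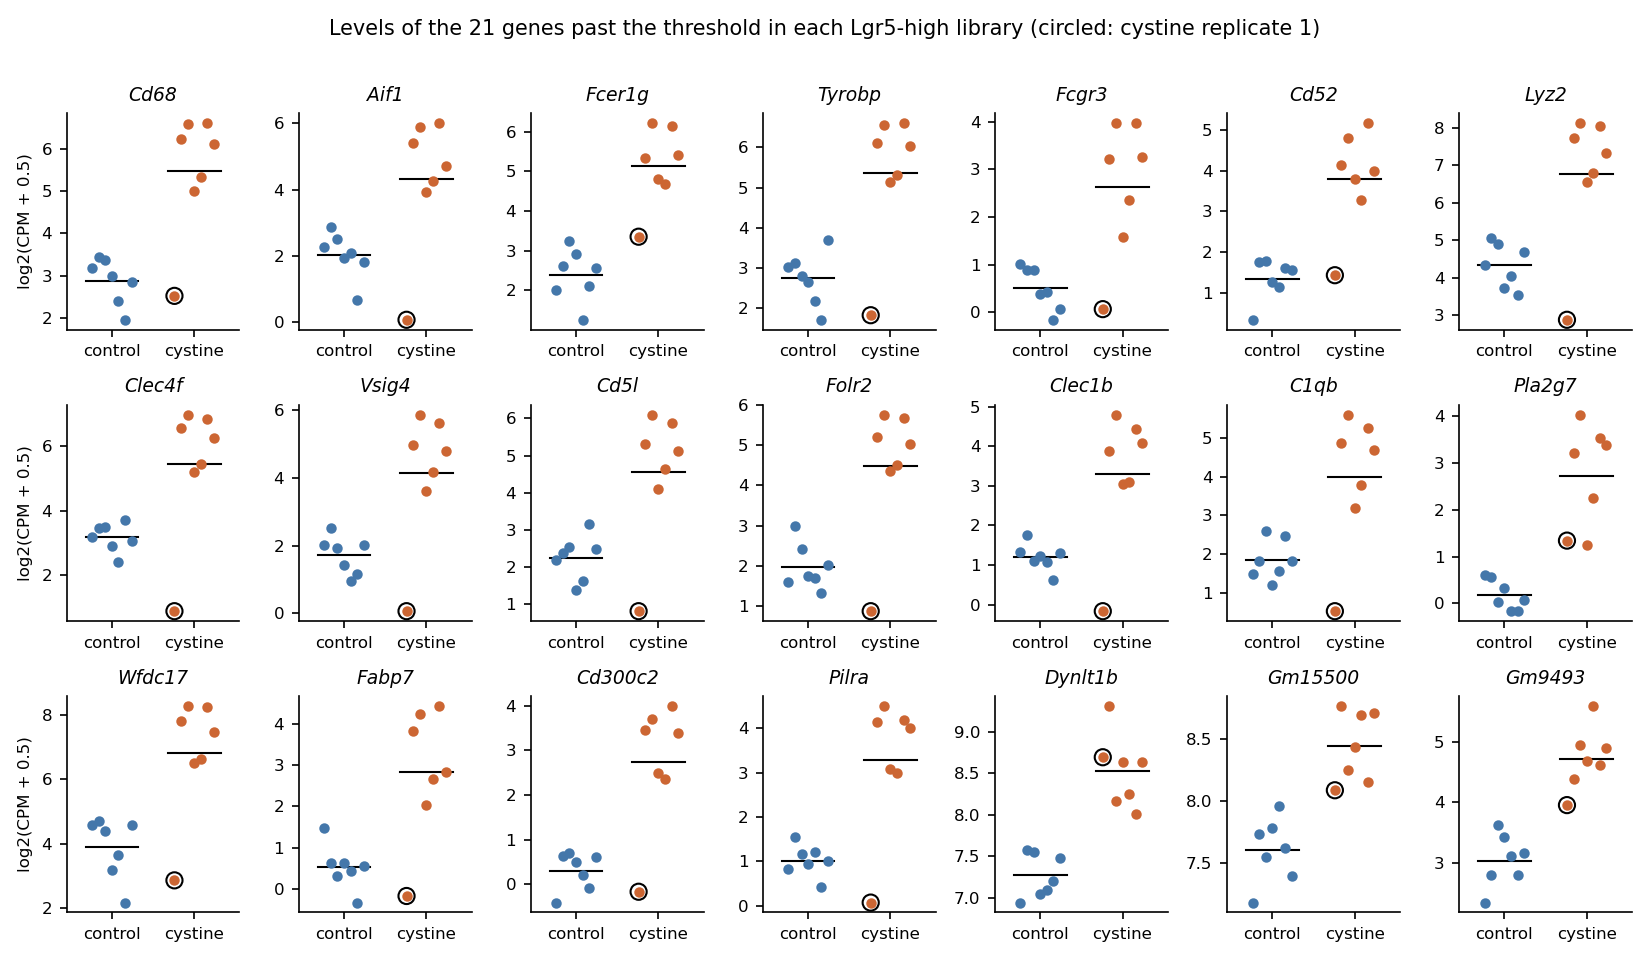
Levels of the 21 genes past the threshold in each Lgr5-high library, as log2(CPM + 0.5), 1 point per library, with a bar at the mean of the 7 values; control libraries are blue and cystine libraries orange. In 16 of the 18 leukocyte panels the circled cystine replicate 1 sits among or below the control points while the other 6 cystine libraries sit above them; in the panels of Dynlt1b, Gm15500 and Gm9493 it sits above all control points.

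All but Cd52 and Pilra of these 18 genes stand on lists of macrophage or Kupffer cell markers. Of 31 macrophage genes listed, 26 were tested. All 26 had a positive fold change, against 47.3% of all genes tested. Of the 26, 10 passed, and the median of the 26 was 2.73. Of 12 Kupffer cell genes, 11 were tested, all positive, 6 passed, and the median was 2.86. Both lists were chosen with earlier results of these data known, so their counts and medians partly restate the calls. Among the members that did not pass, Csf1r, the growth factor receptor that macrophages depend on, had a log2 fold change of 2.71 ± 0.76 (adjusted p = 0.189, edgeR), Adgre1, the gene of F4/80, 2.56 ± 0.81, Marco 2.67 ± 1.02 and Timd4 2.73 ± 0.88. Low values in the macrophage list included those of Ctss and Ctsc, which encode lysosomal cathepsins (0.74 and 0.28), and of Itgam, an integrin chain (0.52). Some single markers were near 0. Ms4a1, of B cells, had 0 counts over the 14 libraries, and Cd4 had 1. Of neutrophil genes, S100a8 had 1, S100a9 had 2 and Csf3r had 17. Summed, the 12 genes of the monocyte and neutrophil list nevertheless stood at 383 to 863 CPM on control diet and 442 to 827 CPM on cystine. Only 1 of them was tested, Plac8, with a log2 fold change of -0.15 ± 0.21, and it did not pass. The B and plasma cell list as a whole was not absent, with sums of 0.759 to 30.8 CPM on control diet and 0.782 to 98.6 CPM on cystine. Other leukocyte genes were present on both diets: Cd3g, of the T cell receptor complex, averaged 4.16 ± 3.20 and 5.80 ± 7.09 CPM, Ccl5, a chemokine of T cells, 30.1 ± 16.8 and 42.9 ± 47.4, and Cd74, the MHC class II invariant chain, 17.8 ± 10.6 and 28.2 ± 11.9. No member passed among T cell and intraepithelial lymphocyte genes (10 tested of 21, median 0.99), B and plasma cell genes (4 of 8, median 0.83) or dendritic cell and MHC class II genes (7 of 15, median 0.10).

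None of the 18 hepatocyte genes passed, all of them tested, and their median was -0.31. Their summed level was 722 to 1608 CPM on control diet and 654 to 1991 CPM on cystine. Alb, the gene of serum albumin, averaged 125 ± 43.9 CPM on control diet and 86.9 ± 45.9 CPM on cystine (log2 -0.53 ± 0.35, adjusted p = 1 by edgeR). Clec4g, a lectin of liver and lymph node sinus endothelium, had a log2 fold change of 2.76 ± 0.68 and Gpihbp1, a protein of capillary endothelium, 3.18 ± 0.84, neither past the threshold (adjusted p = 0.0934 and 0.144, edgeR; chosen after their values were seen). Pecam1, an endothelial gene, averaged 90.6 ± 20.7 and 104 ± 13.2 CPM. Of 11 endothelial genes listed, 2 were tested and none passed. Their sum was 65.0 to 128 CPM on control diet and 98.9 to 138 CPM on cystine. Pecam1 alone made most of that sum, which therefore says little about the other listed genes. Pecam1 had a log2 fold change of 0.21 ± 0.18, and Lyve1 pointed the other way from Clec4g and Gpihbp1, at -0.74 ± 0.96.

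Summed over its list, the macrophage level was 128 to 227 CPM in the control libraries. On cystine it was 119 CPM in replicate 1 and 457 to 1352 CPM in the other 6. The Kupffer cell sum was 27.1 to 50.9 CPM on control diet, 16.5 CPM in cystine replicate 1 and 129 to 422 CPM in the rest. Per 100 CPM of the macrophage sum, the Kupffer sum made 20.01 to 26.2 on control diet, 13.9 in cystine replicate 1 and 27.3 to 31.2 in the other 6 cystine libraries, all above the control range. In bulk RNA, more cells of a type and more RNA per cell cannot be told apart. Within the cystine diet the macrophage sum was lower in deeper libraries, a relation looked for after the values were seen. Cystine replicate 6 (2.75 M counts) stood at 1310 CPM, replicate 3 (3.47 M) at 1352, replicate 2 (3.39 M) at 964, replicate 7 (5.32 M) at 835, replicates 5 and 4 (8.92 and 9.12 M) at 501 and 457, and replicate 1 (14.9 M) at 119. On log scales Pearson's r was -0.935 (exact permutation test, p = 0.00278, adjusted over 2 relations 0.00556) and Spearman's rho -0.893 (exact permutation p = 0.0123, adjusted 0.0246), and without the 2 libraries farthest from the median depth, replicates 1 and 6, r was -0.955 (exact permutation p = 0.05). Among the 7 control libraries r was -0.391 (exact permutation p = 0.322) and rho -0.714 (exact permutation p = 0.0881), and without replicates 1 and 6, r was -0.807 (exact permutation p = 0.05). The shallowest control library, at 4.05 M counts, held 194 CPM, within the range of the other control libraries. Within the female class the groups were apart, 128 to 185 CPM in 4 control and 457 to 1352 CPM in 5 cystine libraries, and in the male class the 2 cystine libraries were the extremes, 119 and 964 CPM, around 189 to 227 CPM in 3 control libraries. The part of depth in the macrophage result was not tested.

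**Figure D2:**
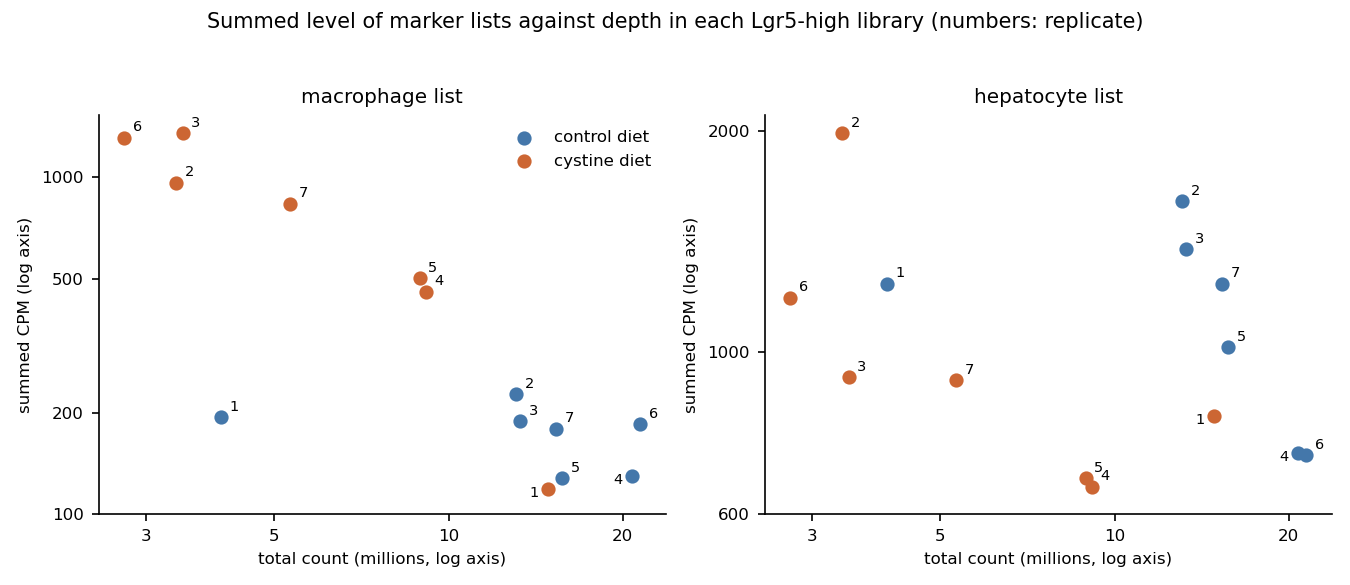
Summed CPM of the macrophage list (left) and of the hepatocyte list (right) against total count in each Lgr5-high library, both axes logarithmic, with the replicate number beside each point. On cystine the macrophage sum goes from 1352 CPM in a library of 3.47 M counts to 119 CPM in the library of 14.9 M, while the hepatocyte sums of the diets overlap.

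Many macrophage genes depend on PU.1, a transcription factor of the ETS family whose classic site holds the word GAGGAA. RefSeq promoters (GRCm38.p6) were on hand for 16 of the 18 leukocyte genes. The word, on either strand, lay within the 250 bases before the start of 9 of them. It lay in 23.3% of all 32851 promoters on hand. That share is per promoter, whereas a gene was counted if any of its promoters held the word. The figures are therefore unlike measures, and no conclusion is drawn from setting them side by side. The 5 with a match within 60 bases of the start are shown because their genes rose together; each line holds the last 80 bases before the start, 5′ to 3′ in the direction of the gene, with the word or its reverse complement in capitals.
Aif1 promoter, chr17:35176053-35176132, minus strand: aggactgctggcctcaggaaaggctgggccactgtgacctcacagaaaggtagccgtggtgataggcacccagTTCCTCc
C1qb promoter, chr4:136886201-136886280, minus strand: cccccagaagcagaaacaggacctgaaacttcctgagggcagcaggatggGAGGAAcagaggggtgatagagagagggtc
Fcgr3 promoter, chr1:171059404-171059483, minus strand: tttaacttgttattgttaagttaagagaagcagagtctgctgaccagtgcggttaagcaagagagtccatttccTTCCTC
Vsig4 promoter, chrX:96293439-96293518, minus strand: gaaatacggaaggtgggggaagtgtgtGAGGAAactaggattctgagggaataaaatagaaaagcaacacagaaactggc
Wfdc17 promoter, chr11:83703976-83704055, plus strand: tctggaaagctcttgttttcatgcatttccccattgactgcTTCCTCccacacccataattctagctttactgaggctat
A match is a word in a sequence and not a binding event, and these libraries hold no measurement of PU.1 binding; the gene of PU.1, Spi1, had too few counts to be tested.

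Dynlt1b (chr17:6430112-6436296), one of a tandem family that encodes the Tctex light chain of the dynein motor, spanned 123 to 190.3 CPM (median 147) on control diet and 258 to 635 CPM (median 397) on cystine, a log2 fold change of 1.299 ± 0.23 (edgeR, adjusted p = 0.00625). Gm15500 (chr7:114705217-114706235), a processed copy of the ribosomal protein gene Rpl5, spanned 145 to 249 CPM (median 197) and 271 to 434 CPM (median 345) (0.84 ± 0.17, adjusted p = 0.0191). Gm9493 (chr19:23619749-23620319), a processed copy of Rps7, spanned 4.56 to 11.8 CPM (median 8.12) and 14.9 to 47.6 CPM (median 25.0) (1.76 ± 0.37, adjusted p = 0.0264). In none of the 3 did the diets overlap, and cystine replicate 1 lay above all control libraries, at 414, 271 and 14.9 CPM, though it was again the lowest cystine library for Gm15500 and Gm9493.

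These genes cannot be read apart from their copies over most of their length. Of the words of 31 bases in Dynlt1b transcripts, 82.7% also occur in Dynlt1c; for Gm15500 99.9% occur in Rpl5, and for Gm9493 83.7% in Rps7. Over the 342 coding bases, Dynlt1b and Dynlt1c differ at 1. Gm9493 differs from the Rps7 coding sequence at 4 of 571 bases, and Gm15500 holds the whole Rpl5 coding sequence of 894 bases with 0 differences. The stretches of 90 bases with the most differences show how few bases tell the copies apart; they come from GENCODE M21 transcripts, 5′ to 3′, and capitals mark the bases at which a pair differs (none for Gm15500, whose stretch is also that of Rpl5).
Dynlt1b: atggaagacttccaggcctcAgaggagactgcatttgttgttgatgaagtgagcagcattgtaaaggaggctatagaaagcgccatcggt
Dynlt1c: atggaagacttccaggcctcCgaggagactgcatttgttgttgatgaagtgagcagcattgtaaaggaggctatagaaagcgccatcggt
Gm9493: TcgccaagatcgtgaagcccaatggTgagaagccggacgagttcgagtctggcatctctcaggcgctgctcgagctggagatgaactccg
Rps7: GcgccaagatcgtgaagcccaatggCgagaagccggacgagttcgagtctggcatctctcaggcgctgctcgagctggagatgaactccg
Gm15500: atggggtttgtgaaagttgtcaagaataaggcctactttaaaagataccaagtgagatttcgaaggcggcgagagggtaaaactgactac
Of the 13 leukocyte genes with no word shared with another gene, Cd68, Clec4f, C1qb, Fcer1g and Tyrobp are examples; the largest share among the 18 was 32.8%, of Lyz2 with Lyz1.

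Added over near-identical copies, none of the 3 families passed. The 4 Dynlt1 genes together had a log2 fold change of 0.76 ± 0.23 (edgeR, adjusted p = 0.344), with 448 to 728 CPM on control diet and 712 to 1466 CPM on cystine. Among them Dynlt1a, at 60.6 to 110.4 CPM (median 91.7) and 110.2 to 232 CPM (median 167), had 0.87 ± 0.22 (adjusted p = 0.1), Dynlt1f 0.64 ± 0.24 and Dynlt1c 0.19 ± 0.23. The Rpl5 copies together had 0.19 ± 0.14, and Rpl5 alone, at 1107 ± 107 and 1126 ± 107 CPM, 0.02 ± 0.15. The Rps7 copies together had 0.32 ± 0.22, and Rps7 alone 0.30 ± 0.21. With copies added, 15 genes passed, all of them among the 18 leukocyte genes.

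Shared sequence was frequent among the genes whose diets did not overlap. Of the 19 genes with all 7 cystine libraries above all 7 control libraries, 11 (57.9%) shared at least 50% of their words with other genes, against 4.87% of the tested genes that are in the annotation. Besides the 3 named, they included Rps23-ps1, Rps27rt, Rps18-ps6 and Gm10269, copies or relatives of ribosomal protein genes, Ndufb4c, a copy of a respiratory chain subunit, and the inducible heat shock gene Hspa1b, which shares 68.0% with other genes. Among the 8 genes lower without overlap, 2 (25%) shared as much. Of the 269 genes higher at an unadjusted p under 0.05, 10.8% shared as much, and of the 266 lower, 3.01%. These genes were chosen after their values were seen, and the part that the division of reads among copies had in their values was not tested.

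The fold changes of the leukocyte genes were nearer to 0 in Lgr5-low cells. Over the 18 genes the Lgr5-low fold changes ran from 0.41 to 1.65 on the log2 scale with a median of 1.03, and all 18 were positive. Cd68 had 0.64 ± 0.43 in Lgr5-low cells against 3.02 ± 0.45 in Lgr5-high cells, Fcer1g 0.93 ± 0.42 against 2.97 ± 0.43, and Aif1, the closest pair, 1.46 ± 0.58 against 3.02 ± 0.58. The 18 genes were chosen by their Lgr5-high effect, which is one term of the difference between the populations, so that their place above the low values is partly fixed by the choice. For that difference 16 of them had an unadjusted p under 0.05, as a description only, where 415 of 12495 genes did (3.32%). No gene passed for that difference after adjustment (0 called, 0%, edgeR), and the lowest adjusted p among the 21 genes was 0.493. Gm9493 and Gm15500 pointed the other way in Lgr5-low cells, with -0.62 ± 0.37 and -0.19 ± 0.17. In Lgr5-low cells alone no gene passed for diet either (0 called, 371 at an unadjusted p under 0.05, edgeR). The macrophage sum of Lgr5-low cells spanned 126 to 281 CPM on control diet and 152 to 387 CPM on cystine, against 128 to 227 and 119 to 1352 CPM in Lgr5-high cells.

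**Figure D3:**
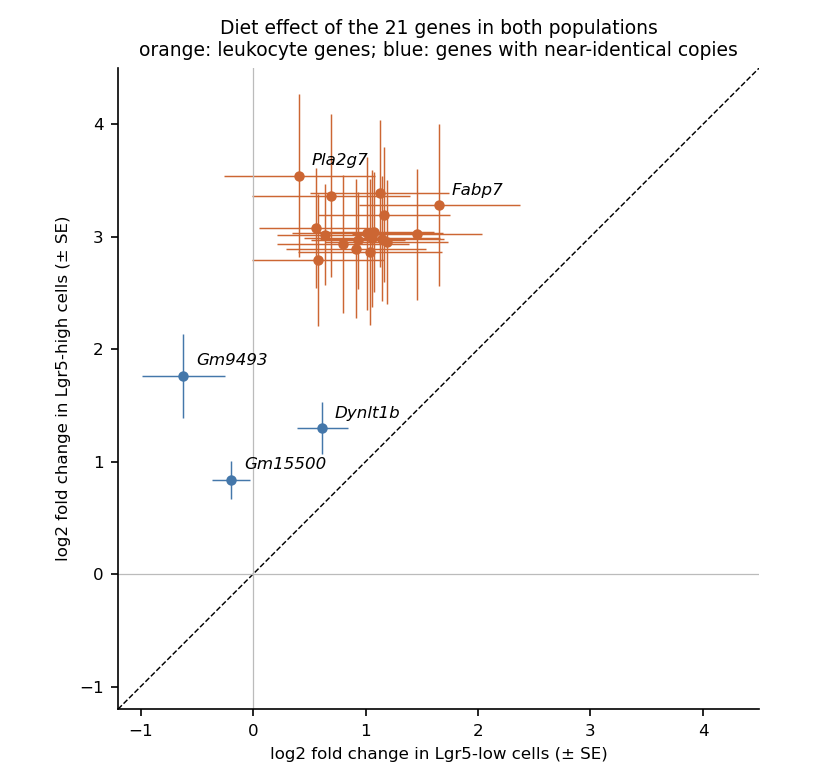
Log2 fold changes of the 21 genes, cystine minus control, in Lgr5-low cells (horizontal) and Lgr5-high cells (vertical), with standard errors; the dashed line marks equal effects. The 18 leukocyte genes (orange) lie above the line, with medians of 1.03 and 3.02, and Gm9493 and Gm15500 are negative in Lgr5-low cells.

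Metallothioneins, small cysteine-rich proteins that bind zinc and copper, came close to the threshold. Mt2 (chr8:94172664-94173568) was at 4.35 to 38.7 CPM (median 13.4) on control diet and 40.5 to 131 CPM (median 63.1) on cystine. The diets did not overlap, and cystine replicate 1 was the highest of all at 131 CPM; the log2 fold change was 2.281 ± 0.57 (edgeR, adjusted p = 0.136). Its neighbour Mt1 (chr8:94179082-94180327) was at 417 to 928 CPM (median 731) and 912 to 1972 CPM (median 1265), with a log2 fold change of 1.0 ± 0.24 (edgeR, adjusted p = 0.0773). Replicate 1 was again the highest, at 1972 CPM, and the shallow replicates 3 and 6 the lowest on cystine, at 912 and 963 CPM, whereas those libraries were the highest for the leukocyte genes. In Lgr5-low cells the fold changes were 2.07 ± 0.57 for Mt2 and 0.82 ± 0.24 for Mt1. Both genes were chosen after their values were seen. Both passed with DESeq2, with limma-voom, within the male class and with the Lgr5-high libraries fitted alone. Neither passed within the female class, with RLE scaling or other filters, or with any single library left out, and with a sex class term Mt1 passed and Mt2 did not.

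The other genes next to the threshold were again mostly leukocyte genes: Dnase1l3, Cd300ld, Fcgr4, Treml4, C1qc, Ccl3, Pilrb1 and Il18bp had adjusted p-values of 0.0517 to 0.0698 (edgeR) and log2 fold changes of 2.13 to 4.07.

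No gene was called lower, and some genes of low p in that direction differed in how cystine replicate 1 behaved. Eef2, the elongation factor that moves the ribosome along the message, was at 144 to 242 CPM (median 222) on control diet and 103 to 224 CPM (median 132) on cystine (-0.62 ± 0.15, adjusted p = 0.0991 by edgeR). Replicate 1 was the highest cystine library at 224 CPM, and the other 6 were at 103 to 136 CPM. H2aj, a variant of histone H2A, showed the widest gap of this kind: 52.7 to 121 CPM (median 84.0) on control diet, 12.2 to 21.6 CPM in 6 cystine libraries and 121 CPM in replicate 1. Fbp1, a gluconeogenic phosphatase, and Cox5a, a subunit of cytochrome c oxidase, were at 99.99 and 142 CPM in replicate 1, against 35.7 to 55.5 and 54.9 to 96.99 CPM in the other cystine libraries. In contrast Garnl3 and Mapk3, the gene of the kinase ERK1, were lower in all 7 cystine libraries than in any control library. Garnl3 spanned 5.73 to 8.54 CPM (median 7.09) on control diet and 0.997 to 5.16 CPM (median 2.03) on cystine (-1.64 ± 0.44), and Mapk3 9.32 to 20.3 CPM (median 10.8) and 4.93 to 7.85 CPM (median 6.79) (-0.99 ± 0.30), with adjusted p-values of 0.146 and 0.338 (edgeR). Without replicate 1, H2aj, Eef2, Tm2d1, Fbp1 and Mrps34 passed as lower. With DESeq2, Isoc1 (-0.80, adjusted p = 0.0185) and Bcar3 (-1.08, adjusted p = 0.0434) were among the genes that passed as lower.

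Crypt base stem cell genes showed no call in either direction. Of 24 listed, 23 were tested, 11 positive and 12 negative, with a median of -0.02 and a range from -0.54 to 0.63. Lgr5 averaged 35.0 ± 9.06 CPM on control diet and 25.8 ± 7.89 CPM on cystine, a log2 fold change of -0.44 with a 95% interval of -1.24 to 0.37. Ascl2, the transcription factor that sets stem cell identity in the crypt, averaged 31.2 ± 9.999 and 48.5 ± 15.3 CPM; its log2 fold change of 0.63 (interval 0.00 to 1.25) was the highest of the list, with an unadjusted p of 0.0487 and an adjusted p of 1 (edgeR). Control libraries spanned 19.7 to 45.6 CPM (median 27.6) and cystine libraries 23.0 to 69.8 CPM (median 46.5), so that the diets overlapped. Olfm4 averaged 4772 ± 1169 and 4883 ± 1251 CPM (0.03, interval -0.45 to 0.52), and Smoc2, a matrix protein of stem cells, 110.1 ± 24.6 and 99.9 ± 19.2 (-0.14, -0.52 to 0.24). Vdr, the vitamin D receptor, had -0.35 (-0.65 to -0.05), and Axin2, a readout of Wnt signalling, -0.39 (-1.07 to 0.30). For Olfm4 the interval excludes changes of 2-fold or more in either direction, and for Lgr5 it does not.

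Among division genes, 23 S phase and 22 mitosis genes were tested and none passed. Mki67, made in cycling cells, averaged 139 ± 44.3 and 143 ± 44.9 CPM. Mcm6 and Mcm2, of the helicase that unwinds DNA, and Cdc6, which loads it, had log2 fold changes of -0.49, -0.63 and -0.83 with unadjusted p-values of 0.00654, 0.0176 and 0.0233 (edgeR; adjusted p = 0.597, 0.926 and 0.991). Cdt1, the partner of Cdc6 in that step, had 0.70.

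Il22 was at 0 counts in all 14 libraries, which allows up to 0.0198 CPM over the libraries together and 0.140 to 1.09 CPM in a single one (3 counts, counting error only). The receptor gene Il22ra1 had 15 counts in all and was not tested. Of 24 genes listed for the interleukin 22 and STAT3 response, 16 were tested, 11 were positive, none passed and the median was 0.19. Reg3b and Reg3g, bactericidal lectins of the epithelium, had the largest positive values. Reg3b spanned 326 to 3071 CPM (median 764) on control diet and 834 to 8755 CPM (median 2653) on cystine, a log2 fold change of 1.196 with an interval of -0.23 to 2.62. Reg3g spanned 189 to 1817 CPM (median 475) and 899.7 to 5476 CPM (median 1422) (1.12, -0.16 to 2.40). Both were highest in cystine replicate 4. That library also held the highest sum of T cell and intraepithelial lymphocyte genes, 357 CPM, against 17.3 to 142 CPM in the control libraries. In cystine replicates 2, 7, 6, 1, 5 and 3 that sum was 34.9, 41.6, 60.4, 64.6, 70.9 and 175 CPM. Their sums of interleukin 22 and STAT3 response genes were, in that order, 6656, 5790, 4391, 2125, 1923 and 3056 CPM. The relation between these sums was not tested. Cd8a, the chain that marks CD8 T cells, was at 7.10 CPM in cystine replicate 4 and at 0.704 CPM in cystine replicate 1. It was at 0 counts in the other 5 cystine libraries. Its log2 fold change between the diets was 1.19 ± 1.36 (edgeR, unadjusted p = 0.385) and did not pass. Cd3e had 27 counts in all and was not tested. The serum amyloid genes Saa1 and Saa2, acute phase proteins that interleukin 22 also induces, had the lowest values of the list, -1.61 (-2.84 to -0.38) and -1.77 (-3.69 to 0.16).

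Genes that carry cystine and cysteine through membranes showed no call among 12 tested of 14. The transporter pair that takes up cystine at the intestinal brush border, Slc3a1 and Slc7a9, had log2 fold changes of -0.18 (-1.12 to 0.76) and 0.03 (-0.94 to 0.99). Slc7a11, the cystine and glutamate exchanger, had 69 counts over the 14 libraries and was not tested. The lowest value was that of Slc7a5, a chain of the large neutral amino acid transporter, at 1.72 ± 1.34 and 0.531 ± 0.370 CPM (-1.63, -3.59 to 0.33). The genes of lowest p were Ctns, which lets cystine out of lysosomes, at 6.203 ± 2.37 and 3.07 ± 2.10 CPM (-1.02, -1.93 to -0.11), and Mfsd12, needed for cysteine entry into them, at 0.105 ± 0.194 and 1.19 ± 0.9747 CPM (3.33, 0.85 to 5.80) from 66 counts in all. The adjusted p-values of Ctns and Mfsd12 were 1 and 0.713 (edgeR).

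Of 15 tested genes of cysteine breakdown, transsulfuration and taurine synthesis, none passed and the median was -0.10. Cdo1, the dioxygenase that commits cysteine to oxidation, was at 30.3 ± 8.59 and 27.0 ± 6.11 CPM (-0.17, -0.66 to 0.32), and Csad, the next step towards taurine, at 11.7 ± 1.44 and 7.76 ± 3.01 CPM (-0.58, -1.51 to 0.34). Cth and Cbs, which make cysteine from homocysteine, had -0.26 (-0.64 to 0.12) and 0.62 (-0.74 to 1.99). Bhmt, which returns homocysteine to methionine, had the lowest unadjusted p of the list (0.0135, edgeR; adjusted p = 0.835) and a log2 fold change of -1.01. Among 21 tested genes of glutathione and the NRF2 response, Gclc, the catalytic subunit of the enzyme that joins cysteine to glutamate, had -0.88 (-1.71 to -0.05; adjusted p = 1), and Gpx2, the glutathione peroxidase of gut epithelium, 0.45 (-0.03 to 0.94). Among 13 tested genes of coenzyme A, Coasy, which completes the molecule, had -0.51 (-1.19 to 0.17) and Nudt7, a hydrolase that degrades it, -0.56 (-1.15 to 0.02).

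**Figure D4:**
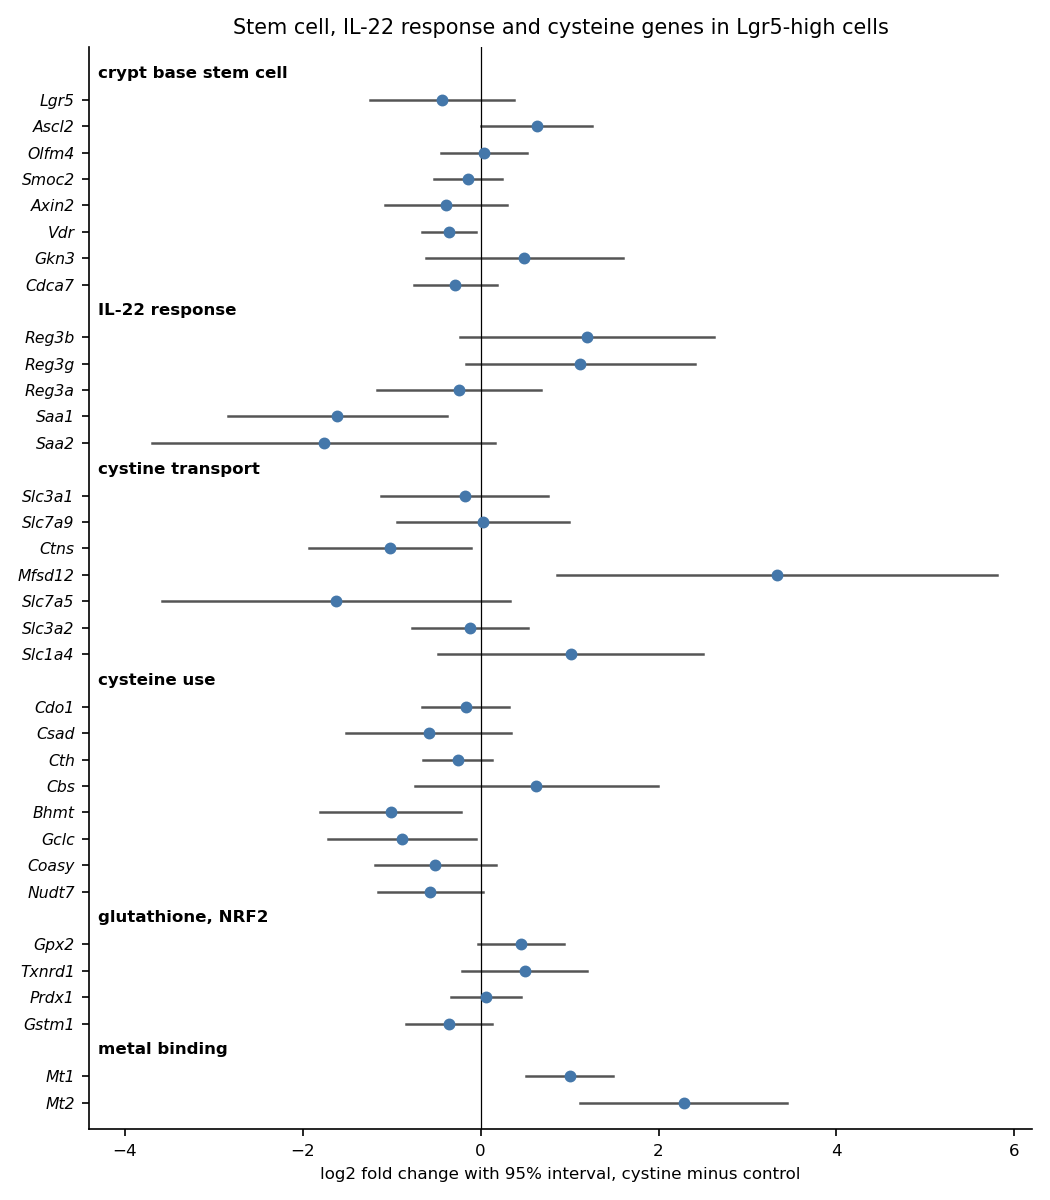
Log2 fold changes with 95% intervals, cystine minus control, of stem cell, interleukin 22 response, cysteine and metallothionein genes in Lgr5-high cells. No gene shown passed the adjusted threshold; the intervals of Mt1 (0.51 to 1.49) and Mt2 (1.12 to 3.45) lie above 0, and that of Reg3b (-0.23 to 2.62) includes it.

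Of the 38 lists, 35 had no called member, the exceptions being the macrophage and Kupffer cell lists and the Tctex family. Enterocyte genes leaned negative, 25 of 27 tested, with a median of -0.37; in the control libraries their sum was 11497 to 13081 CPM in the male class and 2304 to 9579 CPM in the female class, and Paneth cell sums ran the opposite way, 19570.1 to 21928 against 83325 to 156734 CPM, with no overlap between the classes within that diet. On cystine the classes overlapped, with enterocyte sums of 4858 to 8029 CPM in the male and 4955 to 16435 CPM in the female class, and Paneth cell sums of 46284 to 65431 and 57431 to 153418 CPM. Because class went with replicate number, sex and replicate order cannot be told apart here. Immediate early genes, which cells switch on within minutes of stress or handling, had 3 members at an unadjusted p under 0.05, all higher: Dusp1 (2.81), Atf3 (2.69) and Klf2 (3.10), each under 10 CPM in every library and lowest on cystine in replicate 1 (0.0782, 0.235 and 0 CPM). Fos, Jun and Egr1, the best known members, had 0.56, 0.35 and -0.05. Hspa1a and Hspa1b, inducible chaperones that share most of their sequence, had 3.50 and 3.63 at means of 3.24 and 1.90 CPM on cystine. The medians of the chaperone, translation factor and nuclear respiratory chain lists were 0.18, 0.00 and 0.04, and members such as Eef2 and Cox5a, named above, lay apart from them.

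**Figure D5:**
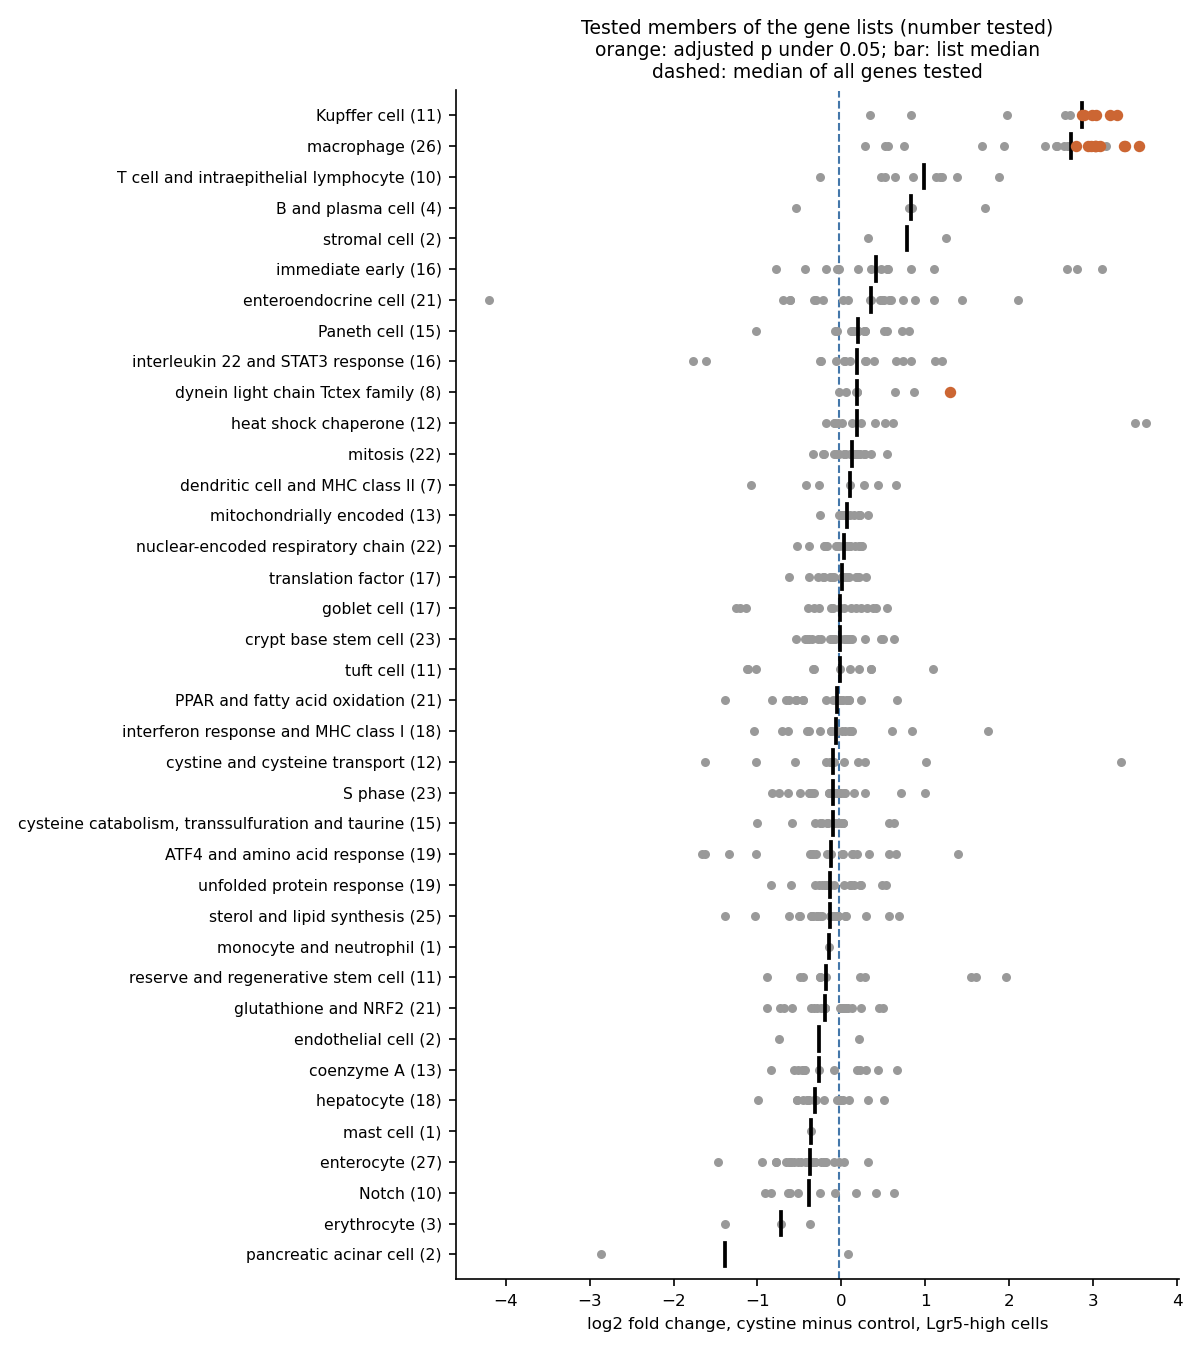
Log2 fold changes, cystine minus control, of the tested members of 38 gene lists in Lgr5-high cells, 1 point per gene, with a bar at each list's median and a dashed line at the median of all genes, -0.02. Kupffer cell and macrophage genes stand at medians of 2.86 and 2.73, with 6 and 10 called members, and Dynlt1b is the other called gene shown. The lists were chosen with earlier results of these data known.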

How the data were processed

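RNA was measured by sequencing in 28 libraries, 7 for each pairing of diet and population. The deposited table holds estimated counts per gene as whole numbers, made by the authors with Salmon 1.3.0 on mm10, per the submitters' processing notes; how reads were trimmed, which annotation was used and how transcripts were combined is not given in the sources used here. Of 54354 Ensembl genes in the table, 51485 (94.7%) matched GENCODE M21, which supplied the names and mm10 coordinates; the 1243 genes without a symbol held at most 0.0111% of a library's counts.

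Genes were filtered with filterByExpr, scaled by TMM and tested with edgeR 4.0.16 (R 4.3.3; robust quasi-likelihood, 4 group means over all 28 libraries, which share 1 estimate of spread), with Benjamini-Hochberg adjustment over 12495 genes and a threshold of 0.05. Fold changes are log2, cystine minus control, with standard errors. CPM are TMM-scaled counts, not divided by gene length, so levels are compared within a gene and not between genes. Single quantities per library were compared by exact 2-sided permutation tests, whose smallest p with 7 against 7 is 0.000583. Limits for 0 counts use 3 counts and cover counting error only. Salmon divides reads among near-identical transcripts by a model, so values of such copies are uncertain; shared sequence was counted as words of 31 bases in GENCODE M21 transcripts. A library was put in the female class above 50 CPM of Xist. Figures add 0.5 to CPM before taking logs.

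Alternatives were DESeq2 1.42.0, limma-voom (limma 3.58.1) with quality weights, other scaling and filters, a sex class term, each class alone, the Lgr5-high libraries alone, a replicate block, and leaving out single or shallow libraries. Summing near-identical copies was added after seeing the data. No 2 libraries of a group agreed within counting noise, so none was treated as a library deposited more than once; this does not show that they came from separate animals.

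The comparison and the 38 gene lists were chosen with earlier results of these data known. Genes named were those past the threshold, the 10 of lowest p in each direction with a mean of at least 2 CPM, from each list the 4 of lowest p and the 3 most abundant, and a set of stem cell, interleukin 22, cysteine and cell type genes. Gm15500 and Gm9493, and the other genes said to be so, were named after their values were seen; among these are also the copies of the called genes and the markers of other leukocytes given by their counts.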

Additional observations from a re-analysis of the deposited data

Results flagged for a closer look

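In 5 of 62 groups of 7 Lgr5-high libraries tested (levels of single genes and list sums, each diet apart), 1 library lay far from the nearest other, by a gap of 0.587 to 0.719 of the group's whole range. Chance alone would mark about 1 in 20 such groups if the values were independent and normally distributed. CPM levels and list sums need not be, so the rate for these groups is not known. Dynlt1b was highest in cystine replicate 2 at 634.6 CPM. Fabp7 was highest on control diet in replicate 1, at 2.2782 CPM, where the library holds 4.05 M counts. The hepatocyte sum was highest on cystine in replicate 2, at 1991 CPM, the library of the highest Dynlt1b level. The sum of interleukin 22 and STAT3 response genes was highest on cystine in replicate 4, at 14584 CPM. That library also had the highest T cell and intraepithelial lymphocyte sum (357 CPM). The next highest response sum on cystine, 6656 CPM in replicate 2, went with the lowest T cell sum of that diet, 34.9 CPM. The sum of immediate early genes was highest on cystine in replicate 6, at 175 CPM, the shallowest library (2.75 M counts).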

How the results depend on the processing

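The 18 leukocyte genes were positive in all alternatives run. The called genes were chosen by their effect in these same libraries, so that they kept its sign was partly fixed by the choice. The count of genes past the threshold was not stable. It was 21 by edgeR, 89 with DESeq2 (82 higher, 7 lower, holding all 21), 38 with limma-voom (30 higher, 8 lower, 10 of the 21), 37 with only the Lgr5-high libraries (15 of the 21), 41 with a sex class term (all 21) and 40 within the female class (32 higher, 8 lower, 20 of the 21). Within the male class, 3 against 2 libraries, 33 genes passed, 7 higher and 26 lower, with 1 of the 21; the higher were Mt2, Dynlt1b, Defa36, Reg4, Defa24, Mt1 and Defa23, and the lower included the enterocyte genes Apoa1, Apoa4, Alpi, Sis and Lct. Without libraries under 5 M counts 0 passed (671 at an unadjusted p under 0.05). RLE scaling gave 24, a minimum of 1 CPM 21, no filter 15 and summed copies 15. Leaving out 1 library gave 7 to 41 calls: 41 without cystine replicate 1, and 14 or fewer without control replicates 1 and 3 to 7 (10, 11, 7, 8, 9 and 7) or cystine replicates 2, 3, 5, 6 and 7 (9, 10, 14, 8 and 9). The medians of the 18 genes were 2.27 to 3.20 under these single and shallow omissions. With the replicate number as a block and the Lgr5-high libraries alone, 14 genes passed, all higher, 8 of them among the 21. Same-numbered libraries of the diets correlated between -0.12 and 0.503, so the numbers were not taken as pairs across diets. Within a diet, same-numbered Lgr5-high and Lgr5-low libraries correlated at 0.233 to 0.52 on control diet and -0.333 to 0.604 on cystine. Whether they came from the same animals is not stated, and the main fit took all 28 libraries as independent. For the difference of diet effects between populations, the count was 0 by edgeR, 6 with limma-voom (3 higher, 3 lower), 1 without libraries under 5 M counts, 0 with the replicate block and 0 to 1 with 1 library left out. The lower depth of cystine libraries kept its direction in all omissions (log2 difference -1.50 to -1.04, exact permutation p from 0.00466 to 0.0478). The mitochondrially encoded share was 19.1% ± 3.16 on control diet and 20.3% ± 3.18 on cystine (SD, n = 7; difference 1.19 points, exact permutation p = 0.487) and turned to -0.058 points without libraries under 5 M counts; leaving out 1 library gave 0.311 to 1.92. The cause of these changes was not tested. Of 546 alternative values for the 21 genes, 323 were still past the threshold and 0 reversed; of 235 other named genes, 33 passed under at least 1 alternative. The common coefficient of variation between libraries of a group was 0.629, and totals of 2.75 to 21.4 M counts leave genes of a few CPM with few counts in the shallow libraries.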
